A study of Mus musculus with 11 samples.

Results

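Mitochondrially encoded genes were taken as the rows of the expression table whose gene symbol begins with mt-, which gave 37 of the 49585 genes in the table. They were the 13 mRNA genes, the 2 rRNA genes and the 22 tRNA genes of the mouse mitochondrial DNA. RNA was measured by sequencing in mouse embryos of the C57BL/6 strain that were made by injecting a male germ cell into an egg. In ROSI (round spermatid injection) the injected cell was a round spermatid, the haploid cell that has finished meiosis but has not yet become a sperm. In ICSI (intracytoplasmic sperm injection) it was a sperm. There were 3 libraries of ROSI 2-cell embryos, 3 of ICSI 2-cell embryos, 2 of ROSI zygotes and 3 of ICSI zygotes, where zygotes are embryos of 1 cell. Every ROSI embryo was activated in a calcium-free CZB medium with 5 mM SrCl2 for 1 to 2 h and then moved to KSOM, an embryo culture medium. ICSI embryos were kept in KSOM, so the kind of injected cell and the activation step cannot be told apart. The labels give no substrain, no hour of collection and no number of embryos per library.

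Mitochondrial DNA is a small circle that the embryo inherits almost entirely from the egg. Both of its strands are transcribed as long precursor RNAs, which are cut largely at the tRNAs that lie between the other genes. The 13 mRNAs encode subunits of respiratory chain complexes I, III and IV and of the ATP synthase, called complex V, and the 2 rRNAs and 22 tRNAs serve the mitochondrial ribosome. The proteins that copy, transcribe and process this DNA come from nuclear genes.

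All values are TPM, a read count per base of gene length scaled so that each library sums to 1e6. A gene's TPM is a share of its library, so more mitochondrial RNA and less RNA from the nucleus cannot be told apart in any result here. Recovered depths lay between 8.48 and 85.9 M reads per library (M is 1e6), of which 1107185 to 4018636 were assigned to the 37 genes. Depth went largely with stage, at 8.48 to 32.9 M in 2-cell libraries. It was 30.4 M in ROSI zygote replicate 1 and 70.7 to 85.9 M in the other zygote libraries. Marker genes of oocytes and early embryos summed to 2663 to 3714 TPM in ROSI 2-cell, 3711 to 4153 TPM in ICSI 2-cell, 10339 to 11564 TPM in ROSI zygote and 12238 to 14398 TPM in ICSI zygote libraries, and none of the 14 was listed at 0 throughout any group. Markers of the 2-cell stage, 9 genes, summed to 342 to 470 TPM in ROSI 2-cell, 695 to 739 TPM in ICSI 2-cell, 76.6 to 85.6 TPM in ROSI zygote and 76.2 to 98.9 TPM in ICSI zygote libraries, so the 2-cell groups did not overlap. Cumulus cell markers, of the cells that surround the egg, summed to 45.4 to 53.2 TPM in ROSI 2-cell, 31.8 to 44.5 TPM in ICSI 2-cell, 11.05 to 14.5 TPM in ROSI zygote and 13.7 to 15.5 TPM in ICSI zygote libraries. They were higher in every 2-cell library than in any zygote library, and 7 to 9 of the 10 averaged under 1 TPM in each group. Spermatid and sperm markers summed to 49.1 to 65.3 TPM in ROSI 2-cell libraries against 14.2 to 22.6 TPM in ICSI 2-cell libraries, and to 99.2 to 190 TPM in ROSI zygote libraries against 28.6 to 35.3 TPM in ICSI zygote libraries. The part of these marker differences in any mitochondrial value was not tested. Whether the replicates are separate cultures is not in the labels, so p-values measure the spread between these libraries, which may be technical.

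The 2 rRNAs were the most abundant members in every group. mt-Rnr2, the 16S rRNA of the large ribosomal subunit, averaged 77470 TPM over the 11 libraries, and mt-Rnr1, the 12S rRNA of the small subunit, averaged 48619 TPM. Together they took 66.7% to 75.2% of all mitochondrial TPM in a library. Among mRNAs, mt-Cytb, the cytochrome b of complex III, had the highest mean, 12005 TPM. mt-Co1, the catalytic subunit of complex IV, averaged 6942 TPM, and 3 subunits of complex I, mt-Nd2, mt-Nd1 and mt-Nd4, averaged 6837, 6726 and 4215 TPM. mt-Nd5 followed at 3828 TPM, and mt-Nd6, the 1 mRNA encoded on the other strand from the rest, at 2878 TPM. The remaining 6 mRNAs were far lower: mt-Atp6 and mt-Atp8 of the ATP synthase averaged 102 and 79.8 TPM, mt-Co2 and mt-Co3 of complex IV averaged 60.1 and 24.7 TPM, and mt-Nd4l and mt-Nd3 of complex I averaged 50.7 and 17.2 TPM. No library bridged this gap, since the highest value of these 6 was 121 TPM and the lowest of the other 7 was 1320 TPM.

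**Figure D1:**
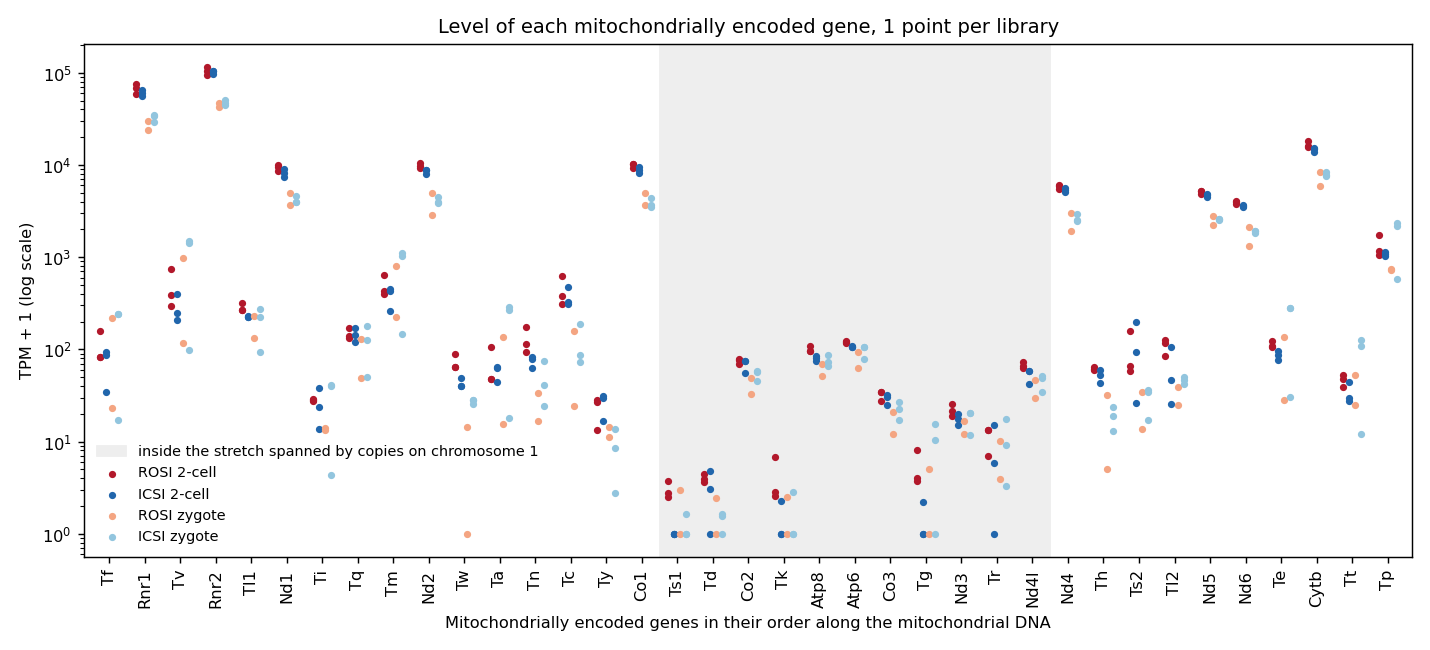
Level of each of the 37 genes as TPM + 1 on a log axis, in gene order along the mitochondrial DNA, with 1 point per library coloured by group. The 11 genes on the grey ground lie inside the stretch spanned by the chromosome 1 pseudogenes, and their highest value in any library was 121 TPM.

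The 6 low mRNAs are neighbours, and they lie in a stretch of mitochondrial DNA that near-identical nuclear pseudogenes span. By alignment of annotated transcripts (GENCODE M21, genome build GRCm38, also called mm10), 7 pseudogenes within chr1:24611535-24616197 aligned to chrM:6390-11042. The alignments covered 4136 of the 4653 mitochondrial bases from the first to the last of them. Inside this span, called the spanned stretch here, lay 11 of the 37 genes, 6 mRNAs and 5 tRNAs (mt-Ts1, mt-Td, mt-Tk, mt-Tg and mt-Tr). mt-Co1 and mt-Nd4 lay in it in part, with 51.1% and 62.2% of their stretches of 50 bases also present in an annotated nuclear transcript. For mt-Co1 this counts copies outside chromosome 1 too. Its chromosome 1 copy aligned to 483 bases, and Gm13340, a pseudogene on chromosome 2, to all 1545 bases at 97.6% identity. The other 24 genes lay outside. Among them mt-Nd2, mt-Nd5 and mt-Rnr2 had 8.19%, 7.61% and 1.04% of such stretches in an annotated nuclear transcript. The 5 tRNAs inside averaged 0.777 to 8.06 TPM, against 16.8 to 1248 TPM for the 17 outside, so the low levels were shared by both classes of RNA in this stretch. The submitters' notes do not say how reads that match several places were counted. Reads of the shared sequence cannot be assigned to the mitochondrion or to the nucleus from these values. The levels of mt-Co2, mt-Atp6, mt-Co3, mt-Nd3 and mt-Nd4l are thus uncertain. Those of mt-Co1 and mt-Nd4 are uncertain in part, and those of mt-Nd2, mt-Nd5 and mt-Rnr2 over a small part of their sequence. For mt-Atp8 and the 5 tRNAs no annotated nuclear transcript shared a stretch of 50 bases. They lie mostly between the annotated pseudogenes, and the nuclear sequence there was not compared.

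The copies show how close the sequences are. The starts of mt-Nd3 and mt-Nd4l and of their chromosome 1 copies are shown because, among pairs in which the copy was listed above the gene, these had the largest ratios. They are given 5′ to 3′ along each gene, from GENCODE M21 transcripts on GRCm38, with differing bases in capitals.
mt-Nd3 (chrM:9459-9518, plus strand): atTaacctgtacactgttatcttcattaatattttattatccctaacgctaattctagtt
Gm28438 (chr1:24613060-24613119, minus strand): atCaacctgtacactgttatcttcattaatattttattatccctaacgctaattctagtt
mt-Nd4l (chrM:9877-9936, plus strand): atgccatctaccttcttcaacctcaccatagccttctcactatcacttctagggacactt
Gm10222 (chr1:24612641-24612700, minus strand): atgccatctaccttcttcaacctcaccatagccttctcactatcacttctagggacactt
Over the 345 aligned bases mt-Nd3 and Gm28438 differed by 1 substitution, T3C, counted from 1 at the first base of mt-Nd3 (the mitochondrial base first, then the base of the copy). These are the bases of the build, and which base the mitochondrial DNA of these embryos has there is not known from the labels, which give no substrain. The 60 bases shown of mt-Nd4l and Gm10222 were identical.

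The nuclear copy was listed above its mitochondrial gene in 5 of the 7 pairs. Gm28438 averaged 1482 TPM, between 852 and 2213 TPM in a library, while mt-Nd3 averaged 17.2 TPM and never passed 24.5 TPM. Gm10222 averaged 437 TPM against 50.7 TPM for mt-Nd4l. The other pairs of this kind were closer: Gm10925 averaged 228 TPM against 102 TPM for mt-Atp6, Gm28437 65.8 TPM against 24.7 TPM for mt-Co3, and Gm28661 77.5 TPM against 60.1 TPM for mt-Co2. For the pairs in which the copy covers only part of the gene the order was the other way, with 40.2 TPM for Gm29216 against 6942 TPM for mt-Co1 and 44.2 TPM for Gm28439 against 4215 TPM for mt-Nd4. The 7 copies together took 0.139% to 0.347% of TPM in a library, and the 6 mRNAs inside the stretch took 0.0193% to 0.0421%.

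**Figure D2:**
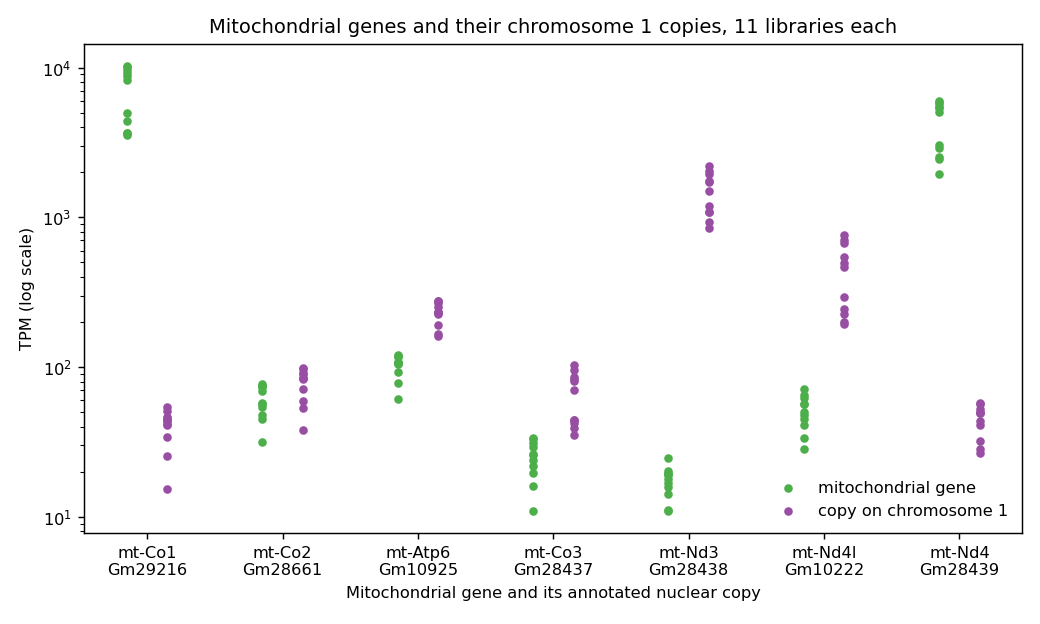
TPM on a log axis of 7 mitochondrial genes (left points of each pair) and of their annotated copies on chromosome 1 (right points), with 1 point for each of the 11 libraries. Copies lie above the genes in all 11 libraries for 5 pairs, and below them in all 11 for mt-Co1 and mt-Nd4.

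A copy that has diverged further is shown for contrast. mt-Nd6 has an annotated pseudogene on chromosome 4, Gm11408, that differs from it by 33 substitutions over 519 bases, and no stretch of 50 bases of mt-Nd6 was present in a nuclear transcript. Of these substitutions A24G, T48C and A76G fall in the 80 bases shown, which run 5′ to 3′ along each gene with the differing bases in capitals.
mt-Nd6 (chrM:13991-14070, minus strand): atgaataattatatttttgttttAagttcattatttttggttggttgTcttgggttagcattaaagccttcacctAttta
Gm11408 (chr4:80003835-80003914, minus strand): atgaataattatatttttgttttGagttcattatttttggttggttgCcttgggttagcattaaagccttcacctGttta
mt-Nd6 made up 6.04% to 7.29% of mitochondrial mRNA TPM in every library. This share differed between 2-cell embryos and zygotes by a log2 difference of -0.02 within the kind of injected cell (exact permutation p = 0.715), and between ROSI and ICSI by -0.07 within stage (exact permutation p = 0.275).

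Mitochondrial RNA took about the same share of each 2-cell library and a smaller share of each zygote library. The 37 genes held 21.9%, 23.3% and 25.8% of total TPM in ROSI 2-cell embryos and 22.6%, 20.6% and 22.8% in ICSI 2-cell embryos. They held 9.97% and 10.2% in ROSI zygotes and 10.5%, 11.8% and 11.4% in ICSI zygotes. Every 2-cell library was above every zygote library, while ROSI and ICSI libraries overlapped at the 2-cell stage and did not in zygotes. The rRNAs held 15.3% to 18.9% of TPM in 2-cell libraries and 6.65% to 8.52% in zygote libraries. The mRNAs held 5.10% to 6.39% in 2-cell libraries and 2.19% to 3.15% in zygote libraries. The tRNAs held 0.260% to 0.492% in 2-cell libraries and 0.144% to 0.649% in zygote libraries, and so overlapped between the stages.

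**Figure D3:**
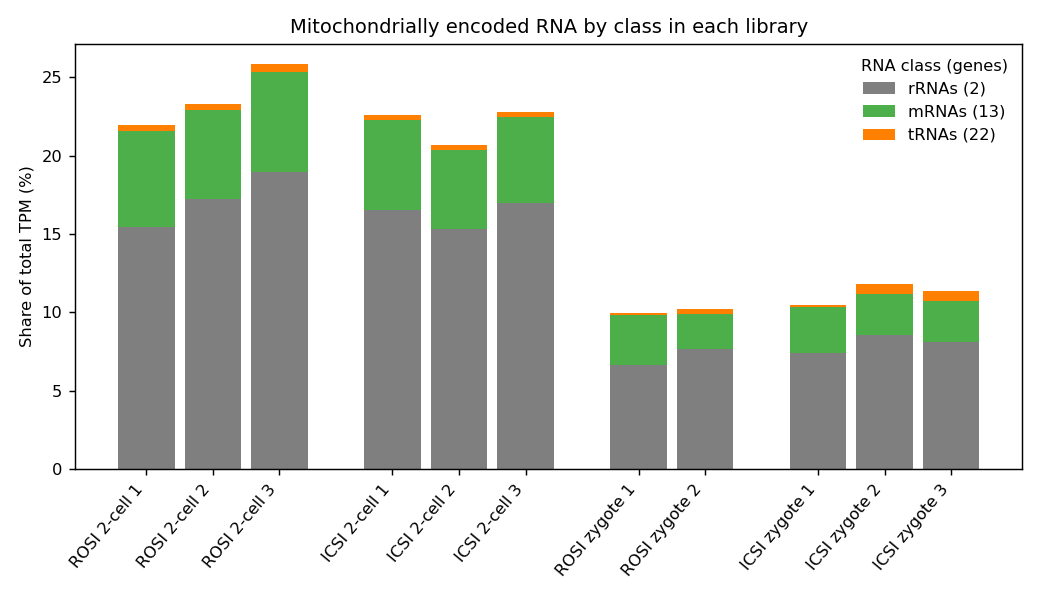
Stacked bars of the share of total TPM (%) held by the 2 rRNAs, 13 mRNAs and 22 tRNAs, with 1 bar per library. Bars of 2-cell embryos reach 20.6% to 25.8% and bars of zygotes 9.97% to 11.8%, with rRNAs the largest part of each.

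The shares were compared by exact two-sided permutation tests on log2 values. With libraries permuted within the kind of injected cell, the ratio of the mitochondrial share in 2-cell embryos to that in zygotes was 2.14 (exact permutation p = 0.005, the smallest that the 200 arrangements allow). The ratio was 2.21 for the rRNA share and 2.15 for the mRNA share, each with the same p. Adjusted by Benjamini-Hochberg over the 49 tests of this family, these p-values were 0.0817 and did not pass the threshold of 0.05, although all 6 of the 2-cell libraries lay above all 5 of the zygote libraries. The tRNA share differed 1.13-fold (exact permutation p = 0.7). The difference in the total was 2.34-fold after ROSI and 1.96-fold after ICSI, and the test of the difference between these gave an exact permutation p of 0.055 (adjusted 0.377). Between ROSI and ICSI the total differed by a log2 value of 0.10 in 2-cell embryos (exact permutation p = 0.4) and -0.15 in zygotes (exact permutation p = 0.2). Tests of 3 against 3 and of 2 against 3 libraries cannot go below 0.1.

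The rest of each library changed its makeup between the stages too. Protein-coding genes of the nucleus held 38.5% to 46.3% of TPM in 2-cell libraries and 63.7% to 68.95% in zygote libraries. Gm23935, the most abundant nuclear gene of the table, held 12.7% to 23.7% in 2-cell libraries and 8.31% to 14.9% in zygote libraries. As a share of recovered reads, which does not divide by gene length, the 37 genes held 10.7% to 13.2% in 2-cell libraries and 4.17% to 4.56% in zygote libraries.

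The balance of rRNA to mRNA showed no such gap between the stages. The ratio of rRNA to mRNA TPM was 2.51, 3.002 and 2.96 in ROSI 2-cell, 2.89, 2.998 and 3.08 in ICSI 2-cell, 2.11 and 3.51 in ROSI zygote, and 2.51, 3.21 and 3.11 in ICSI zygote libraries. Between the stages it differed by a log2 value of 0.04 (exact permutation p = 0.815). The ratio of mt-Rnr1 to mt-Rnr2 was 0.613, 0.654 and 0.653 in ROSI 2-cell embryos, against 0.584, 0.587 and 0.614 in ICSI 2-cell embryos. It was 0.559 and 0.627 in ROSI zygotes, against 0.642, 0.702 and 0.713 in ICSI zygotes. ROSI libraries were thus the lower ones in zygotes and, but for 1 library, the higher ones at the 2-cell stage. The difference between the stage changes was 0.32 on the log2 scale (exact permutation p = 0.02), which did not pass after adjustment over the 49 tests (0.245).

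Each gene was then tested with limma on log2(TPM + 1) among 21938 genes that reached 1 TPM in at least 2 libraries, with Benjamini-Hochberg adjustment over all of them and a threshold of 0.05. All 37 mitochondrial genes were among those tested. Differences below are on this log2 scale, which understates the change of genes near 0, and each has its standard error (SE).

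After ROSI, 20 of the 37 genes were higher in 2-cell embryos than in zygotes and none was lower, where 67.9% of all genes tested were called, 35.6% higher and 32.3% lower. The 20 were both rRNAs, 12 of the 13 mRNAs and 6 tRNAs. The median difference of the 37 genes was 1.02, against 0.19 for all genes tested, and 37 of 37 were above 0, against 11890 of 21938.

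mt-Rnr2 had 95541, 103993 and 114584 TPM in ROSI 2-cell embryos, against 42660 and 47220 TPM in ROSI zygotes. The difference was 1.22 (SE 0.14, limma adjusted p = 2.27e-05). mt-Rnr1 had 58574, 68060 and 74858 TPM against 23856 and 29603 TPM, or 1.33 on the log2 scale (SE 0.17, limma adjusted p = 3.32e-05). For both rRNAs the 2-cell libraries stood well clear of the zygote libraries. Without the filter on low values their adjusted p was 0.181 for mt-Rnr2 and 0.0702 for mt-Rnr1, with larger standard errors, and with only the ROSI libraries in the fit it was 0.152 and 0.0738.

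mt-Cytb had 16084, 15740 and 18150 TPM in ROSI 2-cell embryos, against 8463 and 5843 TPM in ROSI zygotes, or 1.24 on the log2 scale (SE 0.16, limma adjusted p = 3.45e-05). Of the complex I subunits, mt-Nd2 had the largest difference, 1.38 (SE 0.19), followed by mt-Nd4 (1.25, SE 0.17), mt-Nd6 (1.24, SE 0.16), mt-Nd1 (1.12, SE 0.15) and mt-Nd5 (1.01, SE 0.11). mt-Co1 differed by 1.20 (SE 0.16). These 7 mRNAs, which lie outside the spanned stretch or only partly in it, were between 1.01 and 1.38 and were higher in each of the 11 omissions of a library.

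The mRNAs inside the stretch lay between 0.61 and 1.02 after ROSI. mt-Co3 had 26.4, 33.8 and 33.1 TPM in ROSI 2-cell embryos, against 10.9 and 19.7 TPM in ROSI zygotes, a difference of 1.02 (SE 0.25). mt-Co2 differed by 0.91 (SE 0.19), mt-Nd4l by 0.86 (SE 0.23), mt-Atp8 by 0.77 (SE 0.15) and mt-Atp6 by 0.64 (SE 0.17). mt-Nd3 had 17.9, 24.5 and 20.2 TPM in ROSI 2-cell embryos against 11.2 and 15.7 TPM in ROSI zygotes. Its groups did not overlap, and it did not pass (0.61, SE 0.25, limma adjusted p = 0.0525). Without ROSI zygote replicate 1 the adjusted p was 0.108 for mt-Atp6, 0.0581 for mt-Co3 and 0.0874 for mt-Nd4l.

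After ICSI, 12 of the 37 genes were higher in 2-cell embryos than in zygotes and none was lower, where 68.1% of all genes tested were called, 33% higher and 35% lower. The 12 of 37 higher are thus near the share of all genes called higher. The 12 were both rRNAs, 7 mRNAs and 3 tRNAs. The median difference of the 37 genes was 0.34, against 0.00 for all genes tested, and 26 of 37 were above 0, against 10993 of 21938. The count was 20 without ICSI zygote replicate 1, with 13 genes higher and 7 lower, all 7 of them tRNAs.

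mt-Rnr2 had 104344, 96288 and 105085 TPM in ICSI 2-cell embryos, against 44955, 50089 and 47408 TPM in ICSI zygotes, or 1.10 on the log2 scale (SE 0.13, limma adjusted p = 1.94e-05). mt-Rnr1 had 60967, 56543 and 64531 TPM against 28880, 35145 and 33789 TPM, or 0.90 on the log2 scale (SE 0.15, limma adjusted p = 0.00027). Without the filter on low values the adjusted p was 0.18 for mt-Rnr2 and 0.17 for mt-Rnr1. As after ROSI, no 2-cell library of either rRNA fell in the range of the zygotes.

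The 7 mRNAs that rose after ICSI were those outside the spanned stretch or partly in it. mt-Co1 had the largest difference (1.20, SE 0.14), and mt-Nd2 (1.06, SE 0.17), mt-Nd4 (1.04, SE 0.15), mt-Nd1 (0.97, SE 0.13), mt-Nd6 (0.93, SE 0.14), mt-Cytb (0.91, SE 0.14) and mt-Nd5 (0.88, SE 0.10) followed. mt-Cytb had 15326, 13861 and 15074 TPM in ICSI 2-cell embryos, against 8299, 7693 and 7517 TPM in ICSI zygotes. All 6 mRNAs inside the stretch overlapped between the stages and did not pass. Their differences were 0.41 for mt-Co3 (SE 0.22), 0.34 for mt-Co2 (SE 0.17), 0.23 for mt-Nd4l (SE 0.20), 0.15 for mt-Atp6 (SE 0.16), 0.11 for mt-Atp8 (SE 0.14) and 0.03 for mt-Nd3 (SE 0.23). mt-Nd3 had 16.7, 14.1 and 18.9 TPM in ICSI 2-cell embryos, against 10.9, 19.6 and 19.3 TPM in ICSI zygotes. Its copy Gm28438 averaged 1658 ± 136 TPM in ICSI 2-cell embryos and 1118 ± 57.5 TPM in ICSI zygotes, and 2064 ± 134 TPM in ROSI 2-cell embryos and 893 ± 57.4 TPM in ROSI zygotes (SD, n = 3 except 2 for ROSI zygotes).

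**Figure D4:**
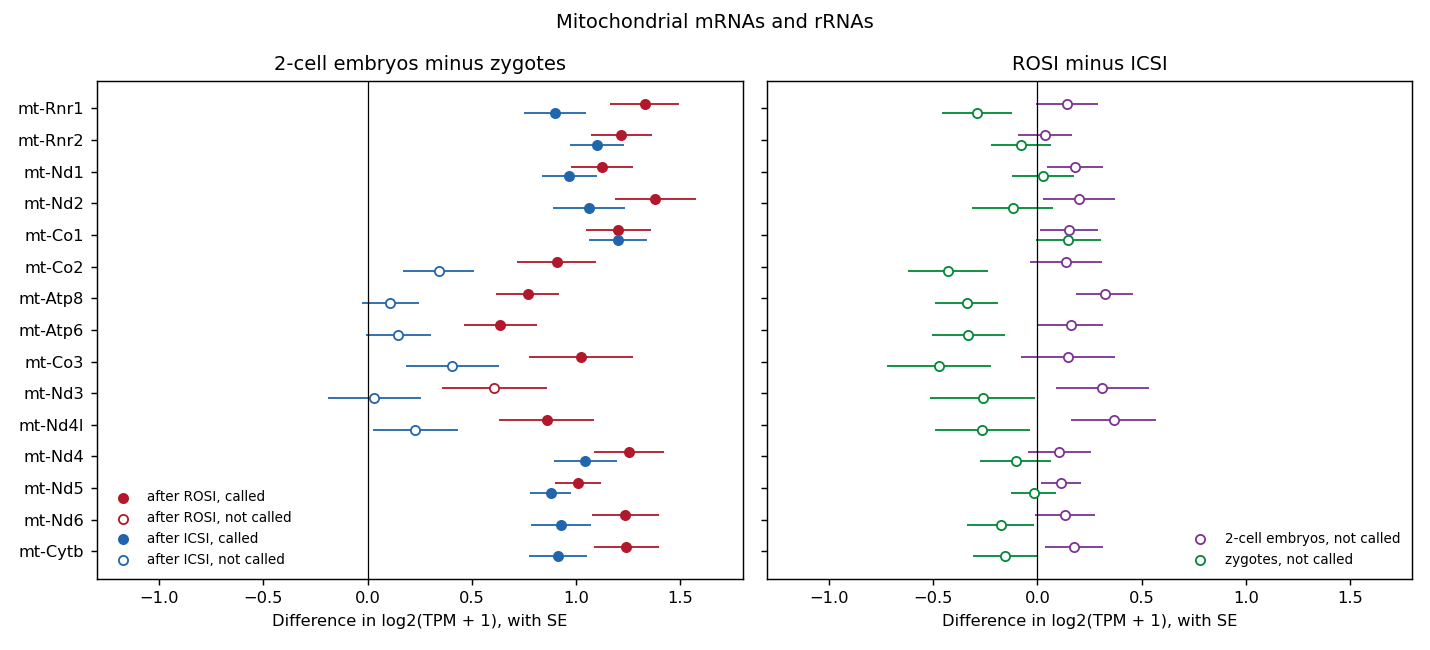
Differences in log2(TPM + 1) with their SE for the 2 rRNAs and 13 mRNAs, as 2-cell embryos minus zygotes (left) and ROSI minus ICSI (right). Filled points passed the limma threshold of 0.05 after Benjamini-Hochberg adjustment; 14 of 15 passed between the stages after ROSI, 9 of 15 after ICSI and 0 of 15 between ROSI and ICSI.

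The summed level of the 6 mRNAs inside the stretch was 0.639%, 0.739% and 0.661% of that of the other 7 in ROSI 2-cell embryos and 0.583%, 0.719% and 0.643% in ICSI 2-cell embryos. It was 0.618% and 1.34% in ROSI zygotes and 0.873%, 1.30% and 1.24% in ICSI zygotes. The 2-cell libraries were all within 0.583% to 0.739%, and 4 of the 5 zygote libraries were above that range. The zygote libraries at 1.24% to 1.34% were ROSI replicate 2 and ICSI replicates 2 and 3. They also held more small nuclear and nucleolar RNA than the other zygote libraries, as described below, so stage and this library difference were not separated here.

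No mitochondrial mRNA or rRNA was called between ROSI and ICSI at the 2-cell stage. There 1 of the 37 genes was called, the tRNA mt-Ts1, where 9.51% of all genes tested were called, 4.93% higher and 4.58% lower. That share was 4.42% without ROSI 2-cell replicate 2, 5% and 5.09% without ICSI 2-cell replicates 2 and 1, 6.31% and 6.27% without ICSI zygote replicates 2 and 3, and 0.387% with only the 2-cell libraries in the fit. It was 3.29% without the filter on low values, and higher at 14.7% with median-ratio scaling and 16.4% with a filter of 5 TPM. Differences were above 0 for 36 of 37 genes, against 11896 of 21938 of all genes tested, with a median of 0.26 against 0.04. The ROSI libraries lay wholly above the ICSI libraries for 7 mRNAs and 8 tRNAs and wholly below for none, where 15.4% of all genes tested lay wholly above. mt-Atp6 had 116, 118 and 121 TPM in ROSI 2-cell embryos, against 106, 104 and 108 TPM in ICSI 2-cell embryos, which differed by 0.16 (SE 0.16, limma adjusted p = 0.559). mt-Atp8 had 95.5, 95.5 and 108 TPM against 73.8, 84.6 and 80.4 TPM, which differed by 0.32 (SE 0.14, limma adjusted p = 0.159). The 13 mRNAs differed by 0.11 to 0.37, mt-Rnr1 by 0.14 (SE 0.15) and mt-Rnr2 by 0.04 (SE 0.13).

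The call of mt-Ts1, a tRNA for serine inside the spanned stretch, rested on very few reads. It had 2, 1 and 1 reads in ROSI 2-cell embryos and 0 in each ICSI 2-cell library, or 2.69, 1.47 and 1.76 TPM against 0. A count of 3 reads of a gene of its length corresponds to between 1.48 and 11.5 TPM in a library, so no fold is given. The 11.5 TPM is that of ICSI 2-cell replicate 1, the shallowest library, so a 0 there is a weak measure. It lost the call without any 1 of the 6 libraries compared, with an adjusted p of up to 0.0811. Its sequence is shown from GENCODE M21 on GRCm38 because it was the 1 gene called.
mt-Ts1 (chrM:6870-6938, minus strand): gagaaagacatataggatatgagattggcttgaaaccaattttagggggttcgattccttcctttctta

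In zygotes, 0 of the 37 genes were called between ROSI and ICSI, where 0.146% of all genes tested were called, 0.114% higher and 0.0319% lower. The share of all genes was between 0% and 1.42% over the alternatives. By limma 3 of the 37 had an unadjusted p under 0.05, against 1392 of all 21938, and the smallest adjusted p was 0.296. Differences were below 0 for 31 of 37 genes, with a median of -0.34 against -0.06 for all genes tested. mt-Co1 had 4997 and 3646 TPM in ROSI zygotes, against 4425, 3539 and 3642 TPM in ICSI zygotes (0.15, SE 0.16). The 13 mRNAs differed by -0.47 to 0.15, and all of them and both rRNAs overlapped between the groups. The ROSI libraries lay wholly below the ICSI libraries for 2 tRNAs, mt-Tw and mt-Tl2, where 19.4% of all genes tested did. mt-Tw, a tRNA for tryptophan, had 13.4 and 0 TPM in ROSI zygotes, against 27.2, 27.4 and 24.3 TPM in ICSI zygotes, from 9 and 0 reads against 47, 46 and 36. It had the smallest adjusted p (0.296) with a difference of -2.84 (SE 0.79), and it was called without ROSI zygote replicate 1 (adjusted p = 2.36e-05), which leaves the library at 0. Without ICSI zygote replicate 1, mt-Tp was called in its place (-1.62, adjusted p = 0.0339).

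For the difference between the stage changes after ROSI and after ICSI, 0 of the 37 genes were called, where 0.0182% of all genes tested were, 0.0137% higher and 0.00456% lower. The share of all genes was between 0% and 1.11% over the alternatives. By limma 5 of the 37 had an unadjusted p under 0.05, against 3303 of all 21938, which is no larger a share, and the smallest adjusted p was 0.162, again for mt-Tw (3.60, SE 1.05). The differences were above 0 for 36 of 37 genes, with a median of 0.63 against 0.10 for all genes tested. So the larger number of calls after ROSI than after ICSI was not shown to be a difference between them. mt-Atp8 had the largest value among mRNAs (0.66, SE 0.20, limma adjusted p = 0.174) and mt-Co1 the smallest (0.00, SE 0.21). The contrasts between stages and between injected cells use the same libraries, so their values are not independent of each other.

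The tRNAs carry amino acids to the mitochondrial ribosome, and their levels ranged more widely than those of the other classes. mt-Tp, for proline, had the highest mean, 1248 TPM, ahead of mt-Tv for valine (581 TPM) and mt-Tm for methionine (539 TPM). mt-Ts1 for serine (0.777 TPM), mt-Tk for lysine (1.25 TPM) and mt-Td for aspartate (1.59 TPM) had the lowest means, and all 3 lie inside the spanned stretch. mt-Tp alone made up 21.4% to 41.8% of tRNA TPM in a library. Its sequence is shown from GENCODE M21 on GRCm38 as that of the tRNA gene with the highest mean.
mt-Tp (chrM:15356-15422, minus strand): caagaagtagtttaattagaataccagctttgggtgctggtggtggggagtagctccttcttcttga
The 8 tRNA genes of the minus strand had means of 0.777 to 1248 TPM with a median of 110 TPM, and the 14 of the plus strand had means of 1.25 to 581 TPM with a median of 44.8 TPM. The strand setting of the counting is not given, so for a minus-strand gene, mt-Nd6 included, its own reads and reads of the long plus-strand precursor over it cannot be told apart. For tRNA genes of either strand, reads of the cut tRNA and of uncut precursor cannot be told apart either. The tRNA values here are thus levels of reads over each gene. Reads of the bases that mt-Atp8 shares with mt-Atp6, and mt-Nd4l with mt-Nd4, cannot be assigned to 1 gene either.

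Of the 22 tRNAs, 6 were called higher in 2-cell embryos than in zygotes after ROSI. This is a smaller share than the 35.6% of all genes tested that were called higher. mt-Tw had 63.7, 63.6 and 87.0 TPM in ROSI 2-cell embryos, against 13.4 and 0 TPM in ROSI zygotes (4.24, SE 0.79, limma adjusted p = 0.000638). mt-Tc, for cysteine, had 630, 312 and 379 TPM against 155 and 23.3 TPM (2.78, SE 0.67), and mt-Tn, for asparagine, had 172, 113 and 92.3 TPM against 32.3 and 15.9 TPM (2.37, SE 0.44). mt-Th, for histidine, differed by 2.27 (SE 0.58), mt-Ts2, the other serine tRNA, by 1.95 (SE 0.77) and mt-Tl2, for leucine, by 1.79 (SE 0.46). In each of the 6 the 2-cell libraries were all above the zygote libraries, which also held for 40.2% of all genes tested. mt-Ts2 lost its call in 6 of the 11 omissions of a library (adjusted p up to 0.267), and mt-Tl2 without ROSI zygote replicate 2 (0.0501).

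After ICSI 3 of the 22 tRNAs were called higher, a smaller share than the 33% of all genes tested that were called higher. mt-Tc had 476, 327 and 312 TPM in ICSI 2-cell embryos, against 187, 71.3 and 84.8 TPM in ICSI zygotes (1.796, SE 0.60, limma adjusted p = 0.0203). mt-Ty, for tyrosine, had 15.8, 29.9 and 28.4 TPM against 12.7, 1.79 and 7.41 TPM (1.85, SE 0.52, limma adjusted p = 0.00814), and mt-Th had 51.2, 42.3 and 59.0 TPM against 22.6, 17.9 and 12.1 TPM (1.51, SE 0.51, limma adjusted p = 0.0227). For all 3 the 2-cell libraries were all above the zygote libraries, which also held for 34.9% of all genes tested. mt-Tc had an adjusted p of 0.0731, 0.0622 and 0.066 without ICSI zygote replicate 2, ICSI zygote replicate 3 and ICSI 2-cell replicate 1. mt-Th had 0.0799, 0.053 and 0.0648 without ICSI zygote replicate 3, ICSI 2-cell replicate 1 and ICSI 2-cell replicate 3.

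Many tRNA levels split the zygote libraries in another way than by the injected cell. Small nuclear and nucleolar RNAs of the nucleus held 0.611% of TPM in ROSI zygote replicate 1 and 0.572% in ICSI zygote replicate 1, against 2.58% in ROSI zygote replicate 2 and 1.64% in both other ICSI zygote libraries. The 3 libraries rich in these small RNAs were all above the 2 poor ones for 10 of the 22 mitochondrial tRNAs and below them for 4, where 10.2% of all genes tested lay wholly above and 20.6% wholly below. The 4 of 22 below are thus near the share of all genes. mt-Ta, for alanine, had 136, 288 and 266 TPM in the 3 rich libraries and 14.4 and 16.8 TPM in the 2 poor ones, a ratio of 14.7 between their means. mt-Tf for phenylalanine, mt-Tv and mt-Te for glutamate had ratios of 12.3, 12.2 and 8.06. In the other direction mt-Tc had 23.3, 71.3 and 84.8 TPM in the rich libraries and 155 and 187 TPM in the poor ones, a ratio of 0.349, and mt-Th, mt-Ty and mt-Ts2 had ratios of 0.422, 0.495 and 0.602. Among these 4 are all 3 tRNAs called higher in 2-cell embryos after ICSI (mt-Tc, mt-Th and mt-Ty). mt-Tc, mt-Th and mt-Ts2 were also called after ROSI. The split was made from the data after the values were seen, and its libraries are not groups of the study.

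**Figure D5:**
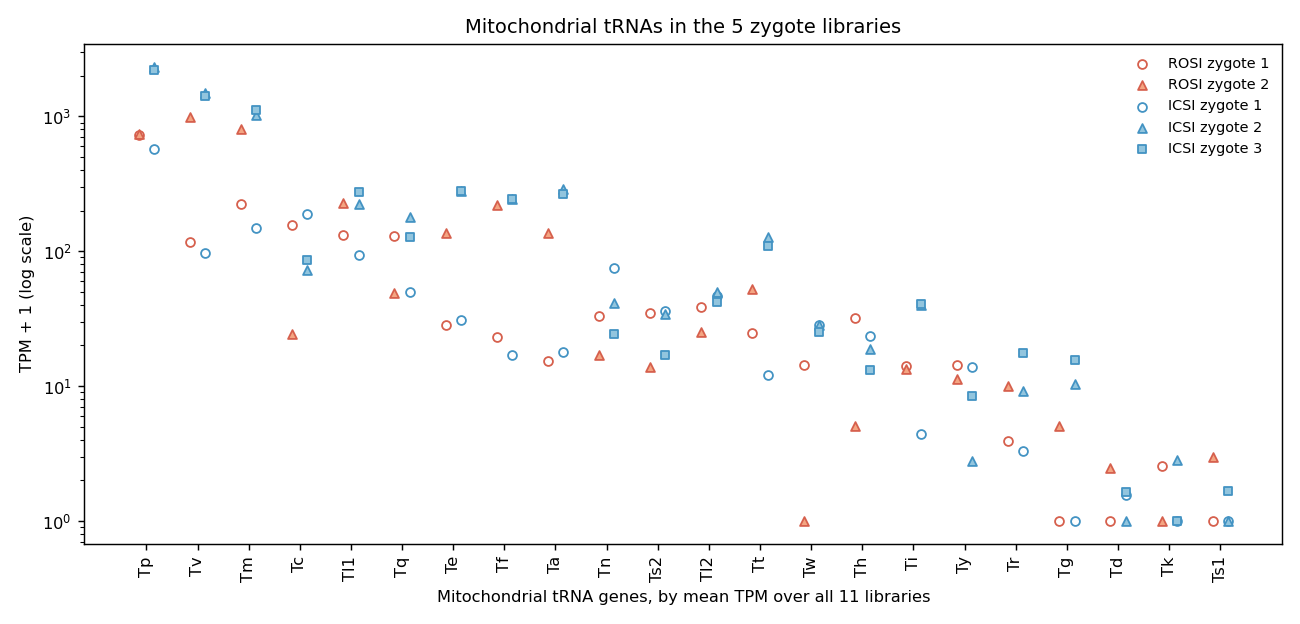
TPM + 1 on a log axis of the 22 mitochondrial tRNAs in the 2 ROSI zygote and 3 ICSI zygote libraries, ordered by mean TPM. Open circles are replicate 1 of each group, the libraries with 0.611% and 0.572% of TPM in small nuclear and nucleolar RNAs; for mt-Tv, mt-Tm, mt-Te, mt-Tf and mt-Ta they lie well below the filled points of both groups.

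The same split also ran through the longer RNAs, by less. Both rRNAs lay above the poor libraries in the 3 rich ones, at ratios of 1.25 for mt-Rnr1 and 1.10 for mt-Rnr2. Of the 13 mRNAs, 5 lay wholly above in the rich libraries, against the same 10.2% of all genes, all inside the spanned stretch (mt-Co2, mt-Atp6, mt-Co3, mt-Nd3 and mt-Nd4l, with ratios of 1.41 to 1.67). Another 5 lay wholly below, against 20.6% of all genes (mt-Nd1, mt-Nd2, mt-Co1, mt-Nd4 and mt-Cytb, with ratios of 0.753 to 0.837), and 3 overlapped. Between ROSI and ICSI zygotes the total mitochondrial share differed by a log2 value of -0.07 within the poor libraries, 1 of each group, and by -0.18 within the rich libraries, 1 against 2. The tRNA share differed by 0.27 within the poor and -0.88 within the rich libraries. Without both replicate 1 zygote libraries 22 of the 37 genes were called between the stages after ICSI, 14 higher and 8 lower, and all 8 lower genes were tRNAs. The part of this library difference in the tRNA results was not tested further.

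Nuclear genes that transcribe, process and maintain mitochondrial DNA were described from a list of 54, of which 52 were in the table and all 52 were tested. After ROSI, 21 were higher and 24 lower in 2-cell embryos than in zygotes, and after ICSI 18 were higher and 24 lower. Of all genes tested 35.6% were higher and 32.3% lower after ROSI, and 33% higher and 35% lower after ICSI. The list had medians of 0.04 and -0.21 against 0.19 and 0.00 for all genes tested. Polrmt, the RNA polymerase of mitochondria, rose to 36.6 ± 4.54 TPM in ROSI 2-cell embryos, against 7.24 ± 1.30 TPM in ROSI zygotes (2.19, SE 0.16), and to 31.0 ± 4.13 TPM in ICSI 2-cell embryos, against 8.59 ± 1.01 TPM in ICSI zygotes (1.73, SE 0.15; SD, n = 3 except 2 for ROSI zygotes). Tfb2m, which opens the promoter with the polymerase, rose by 1.75 (SE 0.12) after ROSI and 1.47 (SE 0.11) after ICSI. Tefm, the elongation factor, rose by 2.60 (SE 0.14) and 1.79 (SE 0.13).

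Other factors of the same machinery fell between the stages. Tfam, which packages mitochondrial DNA and bends its promoters, fell to 4.81 ± 0.775 TPM in ROSI 2-cell embryos, against 18.7 ± 0.747 TPM in ROSI zygotes (-1.77, SE 0.16), and to 2.47 ± 0.521 TPM in ICSI 2-cell embryos, against 19.3 ± 0.336 TPM in ICSI zygotes (-2.56, SE 0.14). Lrpprc, which stabilizes mitochondrial mRNAs, fell by 1.06 (SE 0.17) after ROSI and 1.83 (SE 0.15) after ICSI on the log2 scale. Slirp, its partner, differed by 0.61 (SE 0.23, limma adjusted p = 0.0339) after ROSI. After ICSI it differed by 0.45 (SE 0.20, limma adjusted p = 0.0714). The call of Slirp after ROSI was lost without either ROSI zygote library or ROSI 2-cell replicate 3. It was also lost without the filter on low values, with a block for the replicate number and with only the ROSI libraries in the fit.

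Of the list, Gtpbp3 had the largest called difference above 0 and Mterf4 the largest below 0, after ROSI and after ICSI alike. Gtpbp3 and Pus1, which modify tRNA bases, rose by 3.83 (SE 0.17) and 3.28 (SE 0.30) after ROSI and by 3.86 (SE 0.15) and 2.77 (SE 0.26) after ICSI. Mrm1, an rRNA methyltransferase, rose by 2.58 (SE 0.20) and 2.30 (SE 0.18), and Endog, a nuclease of mitochondria, rose by 2.13 (SE 0.30) after ROSI and 2.26 (SE 0.27) after ICSI. Mterf4, which acts with the rRNA methyltransferase Nsun4, fell to 2.93 TPM in ROSI 2-cell embryos against 55.3 TPM in ROSI zygotes (-3.84, SE 0.11), and to 3.54 TPM in ICSI 2-cell embryos against 50.6 TPM in ICSI zygotes (-3.51, SE 0.10). Tfb1m, which methylates the 12S rRNA, differed by -3.58 (SE 0.10) and -3.15 (SE 0.09), Trit1, which modifies tRNAs, by -2.79 (SE 0.13) and -2.85 (SE 0.12), and Mtpap, the mitochondrial poly(A) polymerase, by -2.90 (SE 0.16) and -2.84 (SE 0.14), after ROSI and after ICSI in that order.

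Between ROSI and ICSI, 8 of these 52 genes were higher and 1 lower in 2-cell embryos, where 9.51% of all genes tested were called, and 0 of 52 were called in zygotes, where 0.146% of all genes were and 1 of the 52 had an unadjusted p under 0.05 by limma. Tfam averaged 4.81 ± 0.775 TPM in ROSI 2-cell embryos and 2.47 ± 0.521 TPM in ICSI 2-cell embryos (0.74, SE 0.14, limma adjusted p = 0.013; SD, n = 3 each). Top1mt, the topoisomerase of mitochondrial DNA, averaged 2.79 ± 0.350 TPM and 1.07 ± 0.154 TPM (0.87, SE 0.17, limma adjusted p = 0.0158). Lrpprc was higher by 0.66 (SE 0.15, limma adjusted p = 0.0229) and Tefm by 0.61 (SE 0.13, limma adjusted p = 0.0184), while Nsun4 was lower (-0.43, SE 0.11, limma adjusted p = 0.0393). Over the omissions of a library the adjusted p reached at most 0.0443 for Tfam, 0.0491 for Top1mt, 0.067 for Lrpprc, 0.0605 for Tefm and 0.114 for Nsun4. The calls of Lrpprc and Tefm were each lost in 3 of the 11 omissions, and that of Nsun4 in 9. Nsun4 also lost its call without the filter on low values and with scaling to genes other than mitochondrial ones. The same held without the variance trend and with a block for the replicate number. With only the 2-cell libraries in the fit none of these 5 passed. The limma adjusted p-values were then 0.0699 for Tefm, 0.0706 for Top1mt, 0.102 for Lrpprc, 0.114 for Tfam and 0.147 for Nsun4. Polrmt (0.23, SE 0.15), Tfb2m (0.18, SE 0.11) and Slirp (0.00, SE 0.20) did not pass. For the difference between the stage changes 0 of 52 were called, where 0.0182% of all genes tested were, with 11 of the 52 at an unadjusted p under 0.05 by limma against 3303 of all 21938. Tefm (0.81, SE 0.19), Tfam (0.79, SE 0.21) and Lrpprc (0.77, SE 0.22) had adjusted p-values of 0.117, 0.138 and 0.154. Polrmt (0.46, SE 0.22), Tfb2m (0.28, SE 0.16) and Slirp (0.16, SE 0.31) had larger ones. In zygotes these 6 genes differed by -0.22 for Polrmt, -0.19 for Tefm, -0.16 for Slirp, -0.11 for Lrpprc, -0.10 for Tfb2m and -0.04 for Tfam.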

How the data were processed

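Values were the TPM that the authors deposited, 1 column per library for 11 libraries, each summing to 1e6. Per the labels' protocols, ISOGEN II was used to isolate total RNA, and libraries were made with a stranded SMART-seq kit from 1 ng. Per the submitters' processing notes, fastp, Bowtie2, STAR 2.7.4a and featureCounts were used with build mm10; the annotation, strand setting and treatment of reads with several matches are not given in the sources used here. Samples were grouped by their labels.

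The members and lists were chosen with earlier results of these data known. GENCODE M21 (GRCm38) gave classes, coordinates and sequences, and 47102 of 49585 rows matched 1 gene; 186 rows shared 93 symbols. Reads were recovered as TPM times exon length scaled to whole numbers, and 85.1% to 86.7% of values came out whole (tolerance 0.01), against 2% expected from evenly spread decimals. Only reads of the 37 genes, all whole, are quoted as counts. For a gene of 2 kb, 3 reads are 0.0512 to 0.396 TPM. Read values cover counting error only.

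limma 3.58.1 in R 4.3.3 (lmFit, contrasts.fit, eBayes with trend) was fitted to log2(TPM + 1) over the 4 group means, for genes that reached 1 TPM in 2 or more libraries, with Benjamini-Hochberg adjustment at 0.05. It was checked on simulated data with known changes. That check ran without the filter on low values and with independent noise for each gene, so it does not cover the reported filter. Shares were tested on log2 values by enumerating all arrangements of libraries, with scipy 1.17.1 and own code. Nuclear copies were sought with blastn 2.17.0 (at least 30 bases) and by shared stretches of 50 bases. Figures used matplotlib 3.10.9.

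All mRNAs and rRNAs were named, and of the tRNAs those called in any contrast, the 3 highest and 3 lowest by mean and the minus-strand genes as a group. Of the nuclear list, up to 4 called genes per direction were named and Polrmt, Tfam, Tfb2m, Tefm, Lrpprc and Slirp in each contrast. Genes compared between zygote libraries rich and poor in small RNAs, and the nuclear copies, were named after their values were seen. Alternatives were pseudocounts of 0.1 and 5, no filter or one of 5 TPM, scaling by median ratios, scaling to genes other than mitochondrial ones, no variance trend, a block for the replicate number, array weights, fits of the compared groups alone, and each library left out.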

Additional observations from a re-analysis of the deposited data

How the results depend on the processing

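The direction of the stage difference in the mitochondrial share, and of the 20 genes called after ROSI and the 12 called after ICSI, held under every alternative tried, with 15 and 10 of these genes also called in all 11 omissions of a library. Leaving out 1 library gave 18 to 24 calls after ROSI, 10 to 20 after ICSI, 0 to 2 between ROSI and ICSI 2-cell embryos, 0 to 1 between ROSI and ICSI zygotes and 0 to 1 for the difference between stage changes. The 1 call between ROSI and ICSI 2-cell embryos became 0 without the filter on low values, with a filter of 5 TPM (which mt-Ts1 does not reach), with array weights and with the replicate block; the cause was not tested. Leaving out replicate 1 of both zygote groups together, chosen after the data were seen, gave 22 calls after ICSI, 3 between ROSI and ICSI 2-cell embryos, 1 between ROSI and ICSI zygotes and 1 for the difference between stage changes. In that setting mt-Ta after ROSI reversed to -1.13 (adjusted p = 0.045), from a value not called with all libraries. The value itself comes from leaving out ROSI zygote replicate 1, which alone gave the same -1.13 without a call (adjusted p = 0.466). Scaling to genes other than mitochondrial ones moved the median of all genes between the stages to 0.36 after ROSI and 0.13 after ICSI. The mitochondrial medians moved to 1.26 and 0.53. This scaling divides all genes of a library by the same factor, so it could not test the gap between these medians. Same-numbered libraries of different groups had residual correlations of -0.04 to 0.33. Of these 15 pairs 2 were over 0.1, against 1 of 30 pairs with different numbers. The 2 pairs were replicates 1 (0.33) and replicates 2 (0.22) of ROSI and ICSI zygotes. The 2 ROSI zygote libraries have opposite residuals, so whether the numbers pair zygote libraries cannot be told from these values. With the replicate block the counts were 20 after ROSI, 16 after ICSI, 0 in zygotes, 0 in 2-cell embryos and 0 for the difference. Fitting the compared groups alone gives no separate value for the difference between stage changes. Adding the chromosome 1 copies to the mRNAs, or leaving out the genes inside the stretch, moved no tested share across its threshold. Both changes were chosen after the data were seen. No share had passed in the main tests, where the smallest p that the arrangements allow limits what can pass. The result thus does not show that the shares are insensitive to the copies. Depth limits the tRNAs most, since 3 reads of a gene of 69 bases are 1.48 to 11.5 TPM.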
